A study of Mus musculus with 8 samples.

Results

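The Spata and Spag genes are mouse genes whose symbols stand for spermatogenesis associated and sperm associated antigen, names given for expression in the testis or for an antigen on sperm and not for shared descent. Members were the genes with a platform symbol that starts with Spata or Spag followed by a digit, on a transcript cluster with that symbol alone, and of several such clusters the one with the highest mean log2 intensity over the arrays was read. Members were thus chosen by symbol, and the cluster of a gene was selected on its mean intensity, with no difference between genotypes in the rule. The members and the groupings used below were, however, chosen with earlier results of these data known. The rule took 41 genes, 29 Spata and 12 Spag, of 19938 genes with a cluster of their own. RNA came from round spermatids, the first haploid cells of sperm formation, purified on an albumin gradient from testes of adult C57BL/6 mice. Their genotypes at Piwil1 varied, which encodes MIWI, the piRNA-binding PIWI protein of pachytene spermatocytes and round spermatids. Mice labelled MIWI -/- had only null alleles, MIWI -/KI mice had the knock-in allele over a null one, MIWI +/KI mice had it over the wild type, and MIWI +/- mice had the wild type over a null allele. No group had 2 wild-type alleles, so the control of most comparisons, MIWI +/-, was itself heterozygous for the null allele. The labels do not say what the knock-in allele changes; the series title speaks of MIWI catalysis. Each genotype had 2 arrays, labelled biological replicates, 8 arrays in all. The sources used here do not give the number of animals behind a replicate, and the p-values therefore reflect only how these preparations varied.

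Round spermatids transcribe many genes of the later sperm, and much of that RNA is stored and translated only when the nucleus has condensed. Spata and Spag proteins work in several of the structures then built. SPAG6, SPAG16 and SPAG17 belong to the central apparatus, the pair of microtubules with projections at the core of the flagellum, SPATA6 is needed for the connecting piece that joins head and tail, SPATA16 is a protein of the forming acrosome, and SPATA18 and SPATA19 are mitochondrial. Others act in meiosis, in ribosome assembly or in signalling in many tissues. In mice without MIWI, sperm formation is known to stop at the round spermatid stage.

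The median intensity of an array was 66.6 to 71.8, and 2 arrays a genotype limit the precision of every value. Over all clusters, arrays of 1 genotype correlated with r between 0.970 (MIWI -/KI) and 0.9951 (MIWI +/KI) on the log2 scale. Some arrays stood nearer to another genotype than to their own: MIWI -/- replicate 2 correlated with r = 0.9855 and 0.9858 with the MIWI +/KI arrays, against 0.9836 with MIWI -/- replicate 1, and MIWI -/KI replicate 1 with r = 0.9885 with MIWI -/- replicate 1, against 0.970 with MIWI -/KI replicate 2. Piwil1 measured 196 and 151 in MIWI -/-, 672 and 696 in MIWI -/KI, 680 and 749 in MIWI +/KI, and 389 and 371 in MIWI +/-. MIWI -/- was lower than MIWI +/- (log2 fold change -1.14, adjusted p = 0.00771 in limma; 0.0850 at most without either MIWI +/- array), and the sources used here do not say whether its probes lie in the deleted part. The 10 round spermatid markers, among them the acrosomal genes Acrv1 and Izumo1, had summed intensities of 12986 to 13618 in MIWI -/-, 12877 to 14749 in MIWI -/KI, 11748 to 12900 in MIWI +/KI and 12228 to 12418 in MIWI +/-, and 0 of them passed the threshold in any comparison. The 10 spermatocyte markers summed to 7175 to 8926 in MIWI -/-, 7708 to 9441 in MIWI -/KI, 7664 to 7753 in MIWI +/KI and 8146 to 8929 in MIWI +/-, and the 8 spermatogonial ones to 1093 to 1123 in MIWI -/-, 1124 to 1227 in MIWI -/KI, 1140 to 1157 in MIWI +/KI and 1068 to 1076 in MIWI +/-. The summed intensity of 9 of 10 listed Sertoli cell markers was 1155 to 1405 in MIWI -/-, 1139 to 1337 in MIWI -/KI, 1520 to 1867 in MIWI +/KI and 1860 to 2029 in MIWI +/-. The sum of 4 of 6 listed macrophage and blood markers was 1001 to 1028 in MIWI -/-, 1045 to 1176 in MIWI -/KI, 1249 to 1388 in MIWI +/KI and 1818 to 1938 in MIWI +/-. Aif1 alone carried that difference, at 789 and 732 in MIWI -/-, 909 and 732 in MIWI -/KI, 1177 and 1009 in MIWI +/KI, and 1680 and 1578 in MIWI +/-: the median log2 fold changes of the list were -0.06 for MIWI -/- and 0.16 for MIWI -/KI relative to MIWI +/-, and Adgre1 averaged 71.4 in MIWI -/-, 80.6 in MIWI -/KI, 63.8 in MIWI +/KI and 62.1 in MIWI +/-. Sums of 4 of 6 listed Leydig cell markers were 323 to 637 in MIWI -/-, 529 to 561 in MIWI -/KI, 253 to 329 in MIWI +/KI and 286 to 373 in MIWI +/-, and those of 4 peritubular markers 472 to 505 in MIWI -/-, 578 to 610 in MIWI -/KI, 384 to 400 in MIWI +/KI and 391 to 401 in MIWI +/-. The peritubular sum followed Acta2, at 276 and 291 in MIWI -/-, 394 and 380 in MIWI -/KI, 172 and 158 in MIWI +/KI, and 188 and 165 in MIWI +/-, while the median log2 fold changes of the list were 0.00 for MIWI -/- and 0.06 for MIWI -/KI relative to MIWI +/-. Over all marker lists, the Sertoli marker Aard, the macrophage marker Aif1 and the spermatocyte marker Syce2 passed as lower, and the peritubular marker Acta2 and the spermatogonial marker Lin28a as higher, both in MIWI -/- and in MIWI -/KI when set against MIWI +/-. The Sertoli marker Wt1 was lower over the 4 arrays without a wild-type allele. On every array 2 Sertoli, 1 Leydig and 1 peritubular marker lay below the array's median, and all other markers lay above it on at least 1 array. The part of these cells in the results below was not tested, and fewer cells of a type and less RNA per cell cannot be told apart.

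Most members were well detected. On 37 of the 41, mean intensity exceeded the median over all genes, 87.1. The brightest were Spata20, at 1636 to 3687 over the arrays, Spag6l, at 2137 to 2938, Spata4, at 1705 to 3012, and Spata6, at 1681 to 2824. The members below the gene median were Spag11b at no more than 25.2, Spag11a at 31.5 to 50.1, Spata13 at 38.4 to 49.4 and Spata5l1 at 45.8 to 75.2. Spag11a and Spag11b encode defensin-like peptides of the epididymis. Intensities of different genes depend on their probes, so this order describes signals and not transcript numbers.

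**Figure D1:**
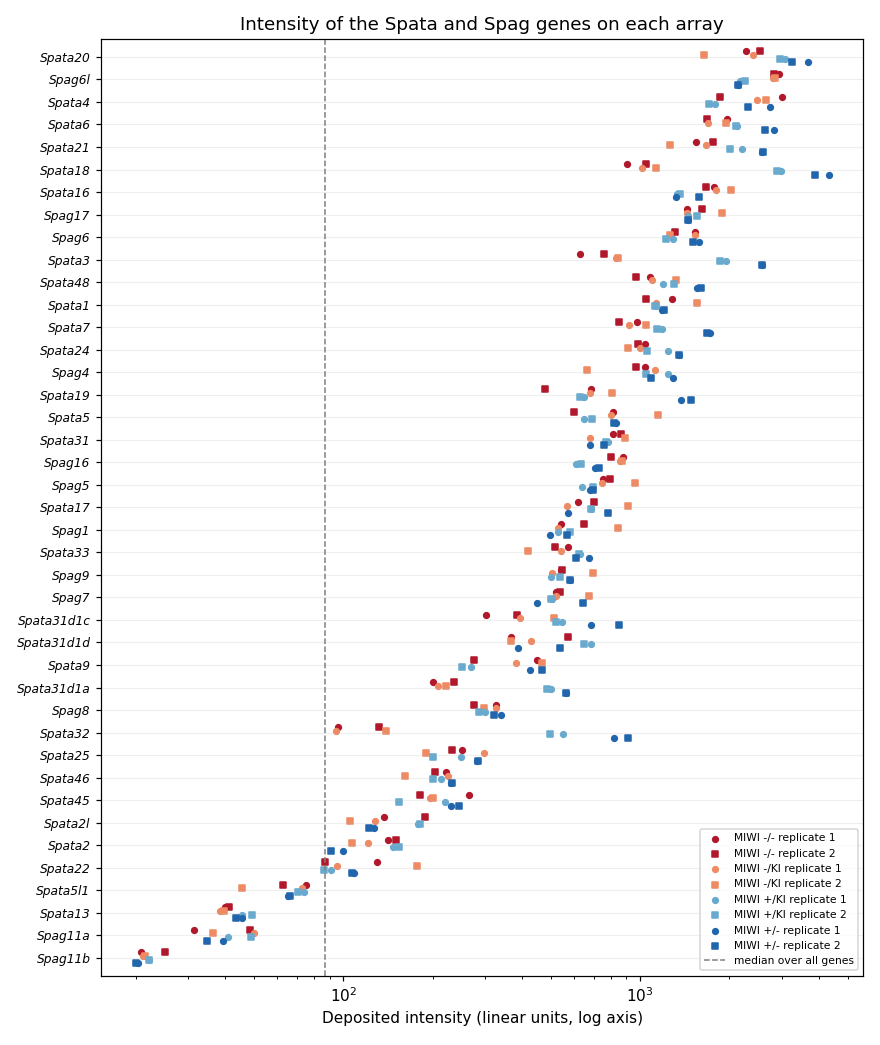
Intensity (linear units, log axis) of each of the 41 Spata and Spag genes on each of the 8 arrays, coloured by genotype, with genes ordered by mean log2 intensity and the median over all genes (87.1) as a dashed line. Spata32, Spata31d1a, Spata3 and Spata18 show the 4 arrays without a wild-type allele to the left of the 4 arrays with one.

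Most calls of members without a wild-type allele were lower, and the largest were in Spata32, Spata18, Spata3 and Spata31d1a. A call means adjusted p under 0.05 in limma, with Benjamini-Hochberg adjustment over all 35512 clusters. Against MIWI +/-, 10 of 41 members (24.4%) passed in MIWI -/-, 9 lower and 1 higher; of all 19938 genes 3.53% were lower and 2.6% higher, 6.13% in all. In MIWI -/KI against the same controls 9 of 41 (22.0%) were lower and 0 higher, beside 3.12% and 3.11% of all genes, 6.23% in all. MIWI -/KI against MIWI +/KI gave 4 of 41 lower (9.76%) and 0 higher, beside 1.29% and 1.14%, 2.43% in all. The 4 arrays without a wild-type allele against the 4 with one gave 9 lower and 1 higher, beside 3.93% and 4.33%, 8.26% in all. The 9 were Spata3, Spata18, Spata31d1a, Spata32, Spata6, Spata7, Spata20, Spata21 and Spata31d1c. For the last of these, adjusted p in limma was 0.0372 (Spata6), 0.0104 (Spata7), 0.0363 (Spata20), 0.0162 (Spata21) and 0.0248 (Spata31d1c). Each call with a value given here was lost in several fits without 1 array. In that comparison the arrays of 16 members did not overlap, 12 lower and 4 higher, beside 6.54% and 9.38% of all genes, 15.9% in all. Median log2 fold changes of the members were -0.13 in MIWI -/- against MIWI +/-, -0.15 in MIWI -/KI against MIWI +/-, and -0.05 when MIWI -/KI was set against MIWI +/KI, beside 0.01, -0.00 and -0.03 over all genes. By wild-type allele the median was -0.03, beside -0.01 over all genes, with 22 members below 0 and 19 above. Both comparisons with MIWI +/- share its arrays, and both of MIWI -/KI share the MIWI -/KI arrays. Both counts against MIWI +/- fell to 4 members without either MIWI +/- array, where 1.73% to 2.07% of all genes passed, as did that of MIWI -/KI without either MIWI +/KI array (3.41% and 3.42% of all genes). The 4 calls against MIWI +/KI fell to 0 without either MIWI +/KI array (0.211% and 0.226% of all genes), and the count was 13 without MIWI -/KI replicate 1, a fit in which 13.4% of all genes passed. The 10 calls by wild-type allele fell to 4 without any 1 of the MIWI +/KI or MIWI +/- arrays, where 3.28% to 4.0% of all genes passed, and were 16 without MIWI -/KI replicate 1, beside 16.5% of all genes. All calls lower were of Spata genes and the call higher was of a Spag gene, Spag6l. Over the 41 members, a first principal component with 74.4% of the variance had scores of -2.43 to -1.86 in the 4 arrays without a wild-type allele and 1.25 to 2.76 in those with one. Genes were not scaled for it, so members with large changes weigh most. Over all clusters a first component with 40.3% of the variance split the arrays likewise, at -57.9 to -15.3 and 22.2 to 38.9. MIWI -/KI replicate 2 stood at -57.9, with the next array at -32.3. Fits without MIWI -/KI replicate 1 rest on replicate 2 alone for that genotype.

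**Figure D2:**
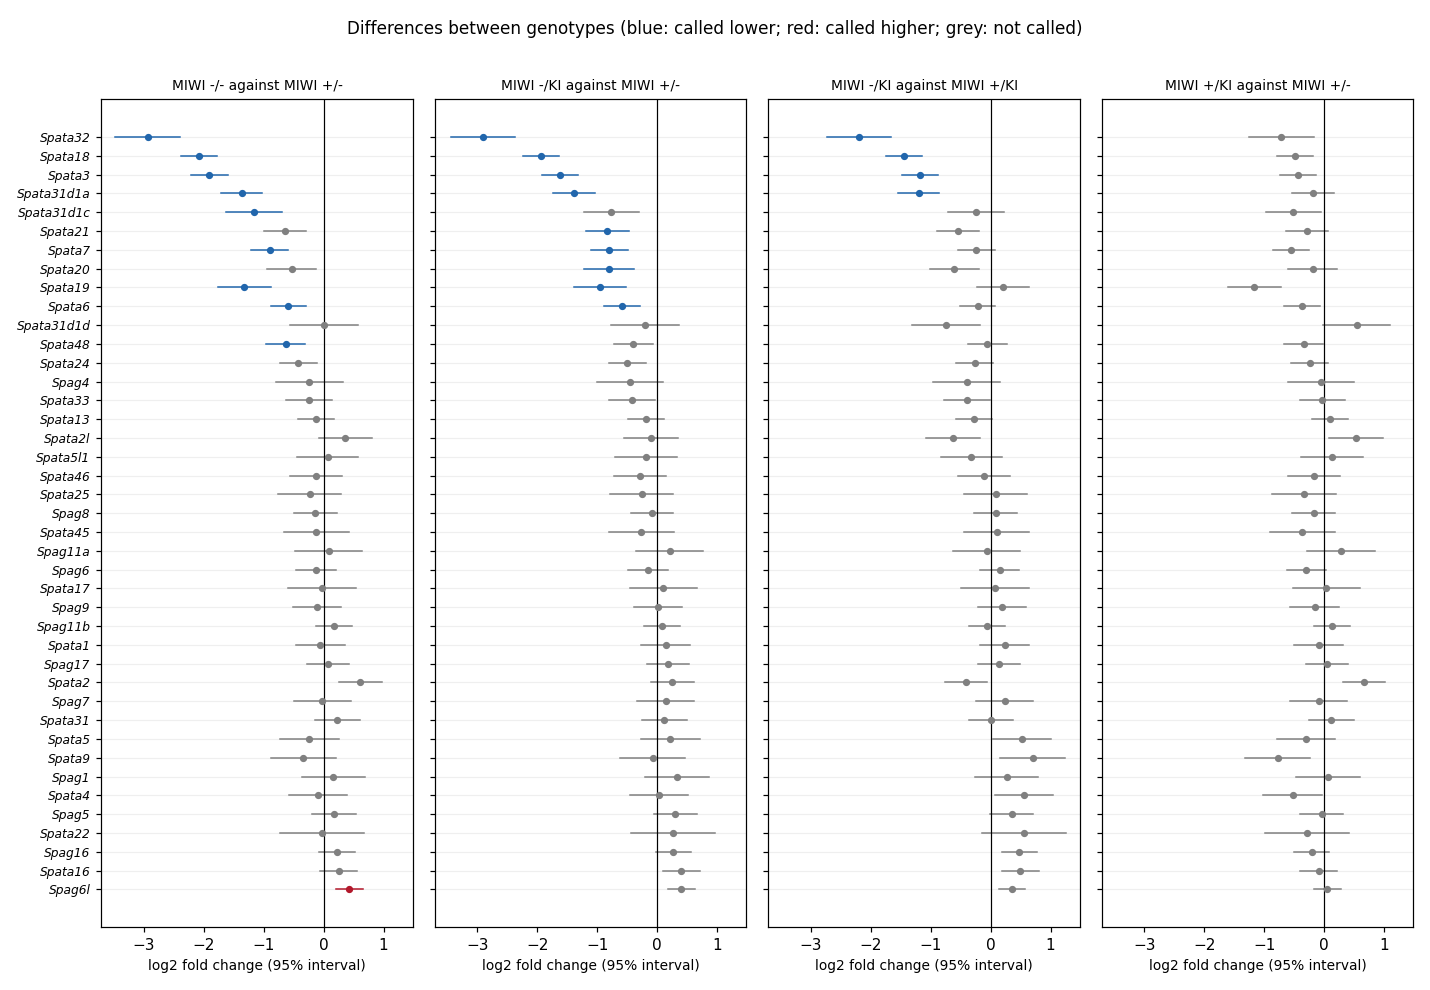
Log2 fold change of each of the 41 members in 4 comparisons, with 95% intervals from limma, ordered by the difference without against with a wild-type allele. Blue points mark calls lower, red points calls higher and grey points no call. Spata32, Spata18, Spata3 and Spata31d1a are blue in 3 panels, and the panel of MIWI +/KI against MIWI +/- holds 0 coloured points.

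The 4 genes called lower in all 3 comparisons of a genotype without a wild-type allele against one with it, and Spag6l, called higher, are shown with the 250 bases before their start of transcription, since genes of haploid cells are known to use cAMP response elements there, bound by the spermatid factor CREM. The windows are from RefSeq (GRCm38.p6), 5′ to 3′ on the gene's strand: chr11:103218433-103218682 (minus strand) for Spata32, chr5:73651130-73651379 (plus) for Spata18, chr1:86021695-86021944 (plus) for Spata3, chr13:59706198-59706447 (minus) for Spata31d1a and chr16:16829364-16829613 (minus) for Spag6l. Capitals mark the half-site TGACG or, on the other strand, CGTCA.
Spata32: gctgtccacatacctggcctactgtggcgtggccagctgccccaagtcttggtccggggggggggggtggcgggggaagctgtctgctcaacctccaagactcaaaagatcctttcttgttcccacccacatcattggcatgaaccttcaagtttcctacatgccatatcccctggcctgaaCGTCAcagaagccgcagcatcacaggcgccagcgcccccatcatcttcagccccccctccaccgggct
Spata18: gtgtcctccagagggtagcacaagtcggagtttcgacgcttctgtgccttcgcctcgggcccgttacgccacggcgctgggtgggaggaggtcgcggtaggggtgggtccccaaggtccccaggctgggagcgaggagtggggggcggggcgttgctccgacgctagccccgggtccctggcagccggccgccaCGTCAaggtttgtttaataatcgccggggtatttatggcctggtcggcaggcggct
Spata3: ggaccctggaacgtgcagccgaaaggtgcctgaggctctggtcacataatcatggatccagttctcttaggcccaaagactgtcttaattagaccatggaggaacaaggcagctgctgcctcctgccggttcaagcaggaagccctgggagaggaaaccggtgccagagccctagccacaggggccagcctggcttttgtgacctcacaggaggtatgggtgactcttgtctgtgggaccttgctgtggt
Spata31d1a: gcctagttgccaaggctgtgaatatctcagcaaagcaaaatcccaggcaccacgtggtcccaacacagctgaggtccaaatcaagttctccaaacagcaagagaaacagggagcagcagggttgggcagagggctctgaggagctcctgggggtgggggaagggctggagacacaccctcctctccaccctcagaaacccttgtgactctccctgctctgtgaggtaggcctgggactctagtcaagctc
Spag6l: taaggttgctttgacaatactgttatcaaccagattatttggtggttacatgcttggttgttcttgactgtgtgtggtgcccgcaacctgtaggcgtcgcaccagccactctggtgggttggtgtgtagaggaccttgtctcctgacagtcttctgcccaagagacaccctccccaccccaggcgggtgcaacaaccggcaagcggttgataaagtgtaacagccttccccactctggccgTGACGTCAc
Spata32 held 1 half-site, with its first base 68 bases before the start, and Spata18 held 1, 56 bases before it. Spag6l held overlapping half-sites of both strands, which together make the full element TGACGTCA, and the windows of Spata3 and Spata31d1a held none of these letters. Of the 41 members 36 were matched in the RefSeq table, with 44 windows, of which 15 (34.1%) held a half-site, beside 17.8% of 32851 windows of all genes. The full element stood in 2 of the 44 windows, those of Spag4 and Spag6l, and in 1.55% of all windows. The windows of all genes were not matched to those of the members for intensity or base composition. These are matches of letters in a window of fixed length and do not show that a factor binds there.

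The 4 members of the mitochondrial and midpiece group had the lowest median log2 fold changes of the role groups against MIWI +/-, -0.93 in MIWI -/- and -0.88 in MIWI -/KI. Spata18 encodes the mitochondria-eating protein, which acts in the quality control of mitochondria. It lies on chromosome 5, as Piwil1 does, and was read on transcript cluster 10522445. Whether the shared chromosome plays a part in Spata18 was not tested. Its intensity was 902 and 1050 in MIWI -/-, 1017 and 1132 in MIWI -/KI, 2973 and 2883 in MIWI +/KI, and 4325 and 3881 in MIWI +/-. Arrays without a wild-type allele were all below those with one. Spata18 fell 4.21-fold in MIWI -/- against MIWI +/- (log2 fold change -2.07, SE 0.13, adjusted p = 0.000145). In MIWI -/KI it fell 3.82-fold against MIWI +/- (adjusted p = 0.000248) and 2.73-fold against MIWI +/KI (adjusted p = 0.0026, and 0.0596 and 0.0524 without MIWI +/KI replicate 1 and 2).

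Spata19, on chromosome 9 and cluster 10584015, encodes a protein of the mitochondrial sheath of the midpiece. It measured 683 and 479 in MIWI -/-, 676 and 803 in MIWI -/KI, 650 and 626 in MIWI +/KI, and 1373 and 1487 in MIWI +/-. Here MIWI +/KI lay with the 2 genotypes without a wild-type allele, and MIWI +/- alone stood high. The log2 fold change was -1.32 (SE 0.19, adjusted p = 0.00712) in MIWI -/- and -0.95 (adjusted p = 0.0289) in MIWI -/KI against MIWI +/-, and 0.21 (adjusted p = 0.639) in MIWI -/KI when set against MIWI +/KI. The log2 fold change of MIWI +/KI against MIWI +/- was -1.16, with an adjusted p of 0.100 in limma (0.00564 with array weights and 0.0147 with only these genotypes in the model). Without MIWI +/- replicate 1 or 2 the call in MIWI -/- was lost (adjusted p = 0.0586 and 0.0824), and the call in MIWI -/KI was also lost without MIWI -/KI replicate 1 or either MIWI +/KI array (0.0528 to 0.206).

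Spata20, a thioredoxin-like protein on chromosome 11 and cluster 10389973, measured 2272 and 2526 in MIWI -/-, 2397 and 1636 in MIWI -/KI, 3077 and 2962 in MIWI +/KI, and 3687 and 3241 in MIWI +/-. MIWI -/KI replicate 2 was the lowest array. It was called lower in MIWI -/KI against MIWI +/- (log2 fold change -0.80, SE 0.18, adjusted p = 0.0433), a call lost in 7 of the 8 fits without 1 array (0.063 to 0.275, all but MIWI -/KI replicate 1) and with the mean of its 2 clusters (0.103). Spata33, a mitophagy receptor, did not pass, at means of 543 in MIWI -/-, 481 in MIWI -/KI, 627 in MIWI +/KI and 640 in MIWI +/-. Of 12 other genes of the midpiece and mitochondrial sheath 1 passed, Smcp, the cysteine-rich protein of the sperm mitochondrial capsule, lower against MIWI +/- in MIWI -/- (log2 fold change -0.78, adjusted p = 0.00384; 0.0501 without MIWI +/- replicate 2) and in MIWI -/KI (-0.72, 0.00598; 0.0671 at most without either MIWI +/- array). The median log2 fold change of these 12 genes in MIWI -/- against MIWI +/- was 0.01, as it was over all genes.

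**Figure D3:**
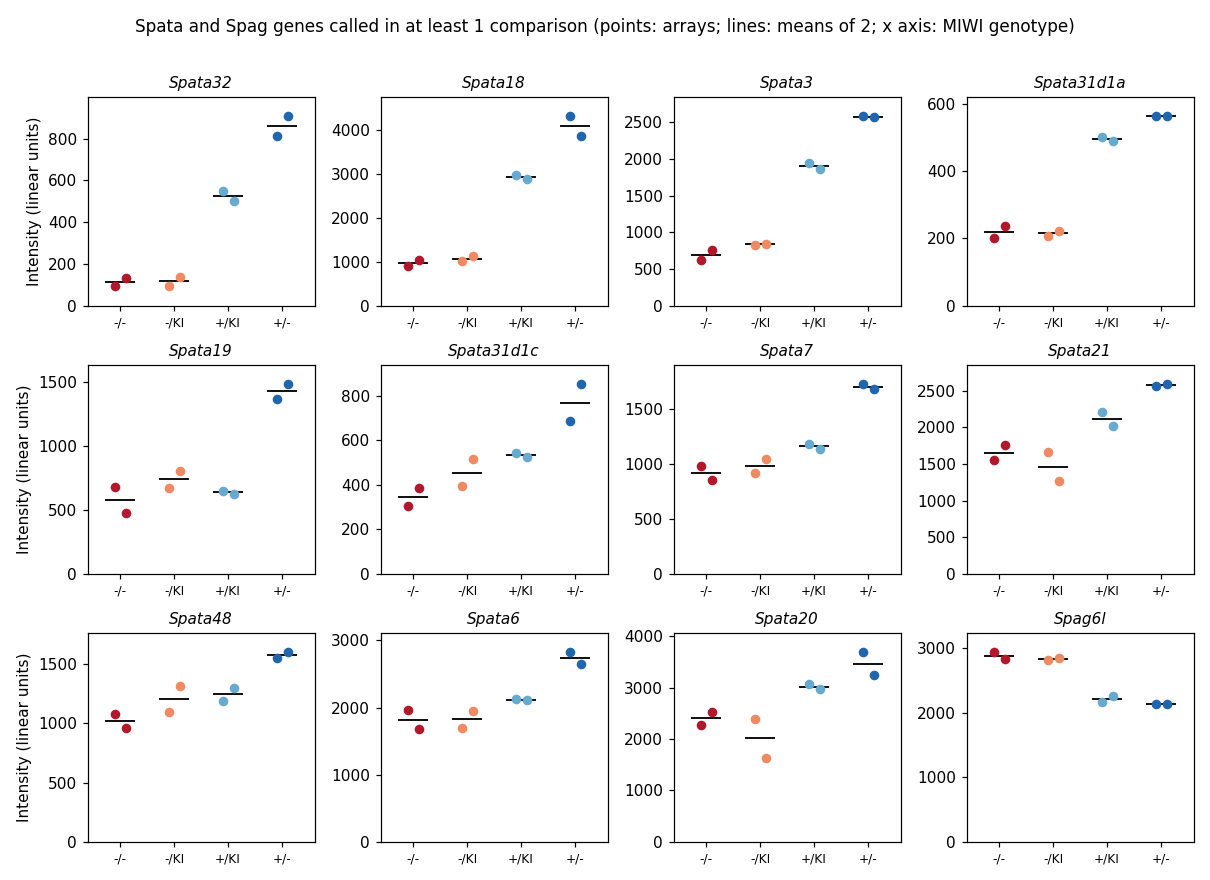
Intensity (linear units, from 0) of the 12 members called in at least 1 comparison, by MIWI genotype, with each point 1 array and each line the mean of 2. Spata32, Spata18, Spata3 and Spata31d1a lie low in MIWI -/- and MIWI -/KI, Spata19 and Spata7 stand high mainly in MIWI +/-, and Spag6l is higher in the 4 arrays without a wild-type allele.

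Head, acrosome and connecting piece genes held 9 members, of which 3 passed in MIWI -/- against MIWI +/-, all lower. Of all genes 3.53% were lower in that comparison, and 6.13% passed in all. Spata6, on chromosome 4 and cluster 10507040, is needed to build the connecting piece. Its intensity was 1959 and 1681 in MIWI -/-, 1693 and 1955 in MIWI -/KI, 2123 and 2105 in MIWI +/KI, and 2824 and 2645 in MIWI +/-. Against MIWI +/- its log2 fold change was -0.59 (adjusted p = 0.0401) in MIWI -/- and -0.59 (adjusted p = 0.0401) in MIWI -/KI. Both calls were lost without either MIWI +/KI array (0.116 to 0.118) and without either MIWI +/- array (0.18 to 0.271); the call in MIWI -/- was also lost without MIWI -/- replicate 2 (0.186) and that in MIWI -/KI without MIWI -/KI replicate 1 (0.0589). Among 15 other genes of the connecting piece and nuclear envelope, 3 were called lower and 1 higher in each of these comparisons. Of all genes 3.53% were lower and 2.6% higher in MIWI -/-, and 3.12% and 3.11% in MIWI -/KI. Spatc1, a protein of the sperm centriole region, measured 154 and 249 in MIWI -/-, 205 and 187 in MIWI -/KI, 865 and 739 in MIWI +/KI, and 959 and 1013 in MIWI +/-. Against MIWI +/- it fell in MIWI -/- (log2 fold change -2.33, adjusted p = 0.00116) and in MIWI -/KI (-2.33, 0.0013), and those 2 calls held in all 8 fits without 1 array. Pmfbp1, which fastens the head to the tail, fell with log2 fold changes of -1.01 and -1.07 in MIWI -/- and MIWI -/KI against MIWI +/-, and Odf1, of the outer dense fibres, with -0.73 and -0.75. Ccdc42 was higher (1.18 and 0.83). Without MIWI +/- replicate 1, and likewise without replicate 2, Spatc1 alone of the 15 passed in each comparison. The Ccdc42 call was also lost in MIWI -/- without MIWI -/- replicate 2 (0.108 at most) and in MIWI -/KI without MIWI -/KI replicate 2 or either MIWI +/KI array (0.299 at most). The median of the 15 genes was -0.09 in MIWI -/- and 0.03 in MIWI -/KI.

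The Spata31 family was represented by Spata31, Spata31d1a, Spata31d1c and Spata31d1d, all on chromosome 13. Related copies can share probe sequence, and cross-hybridisation was not examined. Spata31d1a, on cluster 10409786, measured 201 and 237 in MIWI -/-, 208 and 222 in MIWI -/KI, 500 and 488 in MIWI +/KI, and 563 and 562 in MIWI +/-. The groups with and without a wild-type allele did not overlap. It fell 2.58-fold in MIWI -/- (log2 fold change -1.37, SE 0.15, adjusted p = 0.00186) and 2.61-fold in MIWI -/KI (adjusted p = 0.00208) against MIWI +/-, and 2.30-fold in MIWI -/KI against MIWI +/KI (adjusted p = 0.0103). The last of these calls was lost without either MIWI +/KI array (0.175 and 0.147) and with only these genotypes in the model (0.0637). Spata31d1c, on cluster 10405842, measured 303 and 386 in MIWI -/-, 394 and 513 in MIWI -/KI, 544 and 523 in MIWI +/KI, and 683 and 851 in MIWI +/-. It fell in MIWI -/- against MIWI +/- (log2 fold change -1.16, adjusted p = 0.0164), a call lost without MIWI -/- replicate 1 (0.0706) or MIWI +/- replicate 1 or 2 (0.0647 and 0.156), while MIWI -/KI against MIWI +/- had -0.76 (adjusted p = 0.0814). Spata31d1d did not follow this order. It measured 368 and 572 in MIWI -/-, 429 and 368 in MIWI -/KI, 684 and 647 in MIWI +/KI, and 388 and 538 in MIWI +/-, and passed in no comparison. Spata31 itself, at 677 to 889 over the 8 arrays, had log2 fold changes against MIWI +/- of 0.23 in MIWI -/- and 0.12 in MIWI -/KI.

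Spata16, whose human counterpart is mutated in globozoospermia, measured 1769 and 1665 in MIWI -/-, 1799 and 2020 in MIWI -/KI, 1337 and 1367 in MIWI +/KI, and 1319 and 1575 in MIWI +/-. It did not pass in any comparison; the log2 fold change in MIWI -/KI against MIWI +/KI was 0.50, with a 95% interval of 0.19 to 0.80 and adjusted p = 0.115. Spag4, a SUN domain protein of the nuclear envelope, Spata1 and Spata46 passed in no comparison either, at log2 fold changes of -0.24, -0.05 and -0.13 in MIWI -/- against MIWI +/-. Of 11 other genes of acrosome formation, Hook1, a protein that links vesicles to microtubules in spermatids, was lower than in MIWI +/- both in MIWI -/- (-0.94, adjusted p = 0.00229) and in MIWI -/KI (-0.72, adjusted p = 0.0086; 0.108 at most without either MIWI +/- array). The other 10 did not pass.

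The 9 members put in no role group included the one with the largest change. Spata32, on chromosome 11 and cluster 10391863, measured 96.0 and 132 in MIWI -/-, 94.5 and 139 in MIWI -/KI, 551 and 499 in MIWI +/KI, and 815 and 908 in MIWI +/-. In both genotypes without a wild-type allele it came close to the gene median of 87.1. It fell 7.64-fold in MIWI -/- (log2 fold change -2.93, SE 0.23, adjusted p = 0.000418) and 7.50-fold in MIWI -/KI (-2.91, adjusted p = 0.000567) against MIWI +/-, and 4.57-fold in MIWI -/KI against MIWI +/KI (-2.19, adjusted p = 0.00557). Without MIWI +/KI replicate 1 or 2 this last adjusted p was 0.0896 and 0.0686.

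Spata3, on chromosome 1 and cluster 10347992, was a brighter gene with the same order of genotypes. Its intensity was 626 and 756 in MIWI -/-, 833 and 844 in MIWI -/KI, 1946 and 1854 in MIWI +/KI, and 2580 and 2570 in MIWI +/-. It fell 3.74-fold in MIWI -/- (log2 fold change -1.90, SE 0.13, adjusted p = 0.000224) and 3.07-fold in MIWI -/KI (adjusted p = 0.000567) against MIWI +/-. Against MIWI +/KI it fell 2.27-fold in MIWI -/KI (adjusted p = 0.00656), a call lost without either MIWI +/KI array (0.125 and 0.0999).

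Smaller changes were found in Spata21 and Spata48. Spata21, on chromosome 4 and cluster 10509910, encodes an EF-hand calcium-binding protein, and it measured 1547 and 1758 in MIWI -/-, 1664 and 1261 in MIWI -/KI, 2211 and 2013 in MIWI +/KI, and 2567 and 2588 in MIWI +/-. Arrays without a wild-type allele were all below those with one. The log2 fold change was -0.83 (adjusted p = 0.0213) in MIWI -/KI and -0.64 (adjusted p = 0.0582) in MIWI -/- against MIWI +/-. The call in MIWI -/KI was lost without MIWI -/KI replicate 2 (0.055), either MIWI +/KI array (0.0581 and 0.0582) or either MIWI +/- array (0.145 and 0.149). Spata48, on chromosome 11 and cluster 10374327, measured 1080 and 966 in MIWI -/-, 1093 and 1318 in MIWI -/KI, 1194 and 1302 in MIWI +/KI, and 1556 and 1602 in MIWI +/-. It was called lower in MIWI -/- against MIWI +/- (-0.63, adjusted p = 0.046), and lost that call without any 1 of the MIWI -/-, MIWI +/KI or MIWI +/- arrays (0.0707 to 0.275). A second, dimmer Spata48 cluster had a log2 fold change of 0.09 (adjusted p = 0.951) in that comparison, and the mean of both had -0.27 (0.566). Spag7, Spata9, Spata24, Spata25 and Spata45 passed in no comparison.

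Of the 5 members in signalling and scaffolds, Spata7 passed. Its product sits in the connecting cilium of photoreceptors, and the human gene is mutated in retinal degeneration. On chromosome 12 and cluster 10397651, it measured 978 and 852 in MIWI -/-, 918 and 1047 in MIWI -/KI, 1184 and 1136 in MIWI +/KI, and 1725 and 1680 in MIWI +/-. MIWI +/KI lay between the 2 genotypes without a wild-type allele and MIWI +/-, nearer the first 2. Spata7 fell 1.86-fold in MIWI -/- (adjusted p = 0.00827) and 1.74-fold in MIWI -/KI (adjusted p = 0.014) against MIWI +/-; against MIWI +/KI the log2 fold change in MIWI -/KI was -0.24 (0.421). Without either MIWI +/- array both calls were lost (0.0841 to 0.133), and that in MIWI -/KI also without either MIWI +/KI array (0.053 and 0.0532). Spata2, an adaptor between the deubiquitinase CYLD and the linear ubiquitin ligase, measured 141 and 151 in MIWI -/-, 121 and 107 in MIWI -/KI, 147 and 154 in MIWI +/KI, and 100 and 90.7 in MIWI +/-. It passed in no comparison (log2 fold change 0.61 in MIWI -/- against MIWI +/-, adjusted p = 0.067). Of 6 other genes of the CYLD and linear ubiquitin pathway, 0 passed in the comparisons between single genotypes. By wild-type allele 1 passed, beside 8.26% of all genes. Otulin, a deubiquitinase of linear chains, was higher without against with a wild-type allele (0.45, adjusted p = 0.0462), a call lost in 6 of 8 fits without 1 array, namely either MIWI -/-, MIWI +/KI or MIWI +/- array (0.228 at most). Spata2l, Spata13 and Spag9, the JIP4 scaffold of JNK signalling, passed in none.

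In the flagellum group 1 of 8 members passed, and it was higher. Of all genes 2.6% were higher in MIWI -/- against MIWI +/-, and 6.13% passed in all. Spag6l, on chromosome 16 and cluster 10438049, encodes the armadillo-repeat protein of the central apparatus. Its intensity was 2938 and 2832 in MIWI -/-, 2812 and 2845 in MIWI -/KI, 2165 and 2257 in MIWI +/KI, and 2137 and 2140 in MIWI +/-. All 4 arrays without a wild-type allele were above all 4 with one. It rose 1.35-fold in MIWI -/- against MIWI +/- (log2 fold change 0.43, SE 0.10, adjusted p = 0.0475), and 1.31-fold over the 4 arrays without a wild-type allele against the other 4 (adjusted p = 0.0131). The first call was lost in the 6 fits without a MIWI -/-, MIWI +/KI or MIWI +/- array (0.115 to 0.269), and the second without either MIWI +/KI array (0.117 and 0.0905) or either MIWI +/- array (0.0709 and 0.0737). In MIWI -/KI the log2 fold change was 0.40 against MIWI +/- (adjusted p = 0.0604) and 0.36 against MIWI +/KI (0.122).

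Spag6, its near copy on chromosome 2, passed in no comparison. It measured 1528 and 1307 in MIWI -/-, 1535 and 1265 in MIWI -/KI, 1295 and 1221 in MIWI +/KI, and 1582 and 1511 in MIWI +/-, and its log2 fold change was -0.13 in MIWI -/- (95% interval -0.46 to 0.20). Spag16, whose WD-repeat protein joins SPAG6 in the central apparatus, measured 878 and 799 in MIWI -/-, 857 and 867 in MIWI -/KI, 608 and 631 in MIWI +/KI, and 703 and 729 in MIWI +/-. Its arrays did not overlap, as in 49.4% of genes for MIWI -/- against MIWI +/- and 49.1% for MIWI -/KI against MIWI +/KI, and it passed in neither (0.23, adjusted p = 0.5; 0.48, adjusted p = 0.117). Spag17, of a central pair projection, had a log2 fold change of 0.07 in MIWI -/- against MIWI +/- (95% interval -0.28 to 0.42). Spag1, a factor of dynein arm assembly, Spag8, Spata4 and Spata17 passed in no comparison, with log2 fold changes between -0.14 and 0.16 in MIWI -/- against MIWI +/-.

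Some other genes of the central apparatus were higher in the genotypes without a wild-type allele than in MIWI +/-. Against MIWI +/- 5 of 12 passed in MIWI -/-, 3 of 12 did so in MIWI -/KI, all of them higher, beside 6.13% and 6.23% of all genes in either direction. Cfap69 (-0.28) and Spef1 (0.04) were among the 7 that did not pass in MIWI -/-. The medians of the 12 log2 fold changes were 0.60 and 0.52, beside 0.01 and -0.00 over all genes. Cfap54 measured 1633 and 2329 in MIWI -/-, 1667 and 1976 in MIWI -/KI, 1090 and 1305 in MIWI +/KI, and 708 and 717 in MIWI +/-, and rose in MIWI -/- (log2 fold change 1.45, adjusted p = 0.00455) and MIWI -/KI (1.35, 0.00677). Cfap65 (0.97), Hydin (0.86) and Cfap46 (0.82) were the next largest in MIWI -/-, and Hydin, a giant protein of a central pair projection, was also at 1250 and 1275 in MIWI +/KI, beside 777 and 815 in MIWI +/-. In MIWI -/KI against MIWI +/KI 0 of the 12 passed and the median was 0.14, while MIWI +/KI against MIWI +/- had a median of 0.43 with 0 calls. The counts ranged from 1 to 7 in MIWI -/- and from 0 to 6 in MIWI -/KI when 1 array was left out, with 1 and 0 without either MIWI +/- array. The share of all genes called also moved widely between these fits, each of which left 1 genotype with 1 array. Of 13 genes of dynein arm assembly, 0 passed in MIWI -/- against MIWI +/-. Pih1d2 was higher in MIWI -/KI, against MIWI +/- (0.73, adjusted p = 0.0214) and against MIWI +/KI (0.74, 0.0402), and lost both calls without either MIWI +/KI or either MIWI +/- array, and the second also without MIWI -/KI replicate 2 (0.197 and 0.394 at most).

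**Figure D4:**
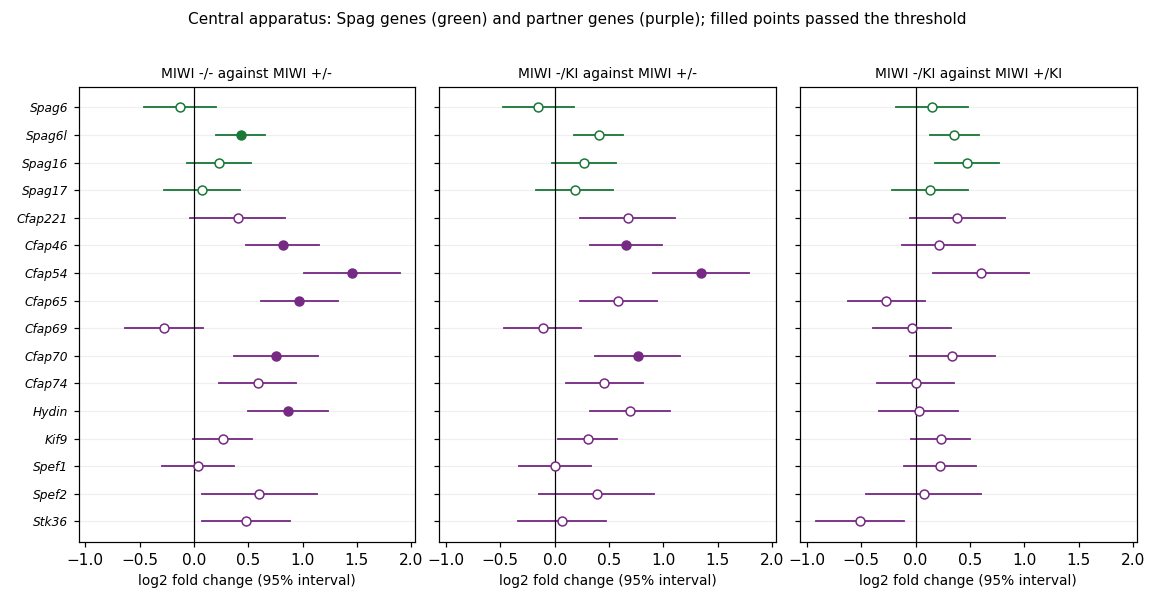
Log2 fold change with 95% interval of 4 Spag genes (green) and 12 other genes (purple) of the central apparatus in 3 comparisons, with filled points past the threshold. Against MIWI +/- 5 purple points are filled in MIWI -/- and 3 in MIWI -/KI, Spag6l is the 1 filled green point, and the panel against MIWI +/KI has 0 filled points.

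The other groups had 0 calls in every comparison. Spata22, the partner of MEIOB in meiotic recombination, measured 130 and 86.9 in MIWI -/-, 95.4 and 178 in MIWI -/KI, 91.0 and 86.2 in MIWI +/KI, and 109 and 107 in MIWI +/-, so both genotypes without a wild-type allele had replicates far apart. Spag5, the spindle protein astrin, had log2 fold changes against MIWI +/- of 0.17 in MIWI -/- and 0.30 in MIWI -/KI. Of 8 other genes of that recombination step Brca2 was higher in MIWI -/- (1.99, adjusted p = 0.00116) and MIWI -/KI (1.91, adjusted p = 0.00163) against MIWI +/-, calls kept in the 8 fits without 1 array. Brca2 lies on chromosome 5, as Piwil1 does, and whether that has a part in its rise was not tested. Rpa1, a subunit of the single-strand DNA binding complex, was lower in MIWI -/- (-1.57, 0.0033). Against MIWI +/- 6.13% of all genes passed in MIWI -/- and 6.23% in MIWI -/KI. Spata5, an ATPase of ribosome assembly, measured 811 and 600 in MIWI -/-, 795 and 1153 in MIWI -/KI, 648 and 687 in MIWI +/KI, and 828 and 817 in MIWI +/-, and its relative Spata5l1 was dim. The epididymal Spag11a and Spag11b had means of 40.1 and 23.0 in MIWI -/-, 43.2 and 21.3 in MIWI -/KI, 44.9 and 22.2 in MIWI +/KI, and 37.1 and 20.2 in MIWI +/-.

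The heterozygous carriers of the knock-in allele were also set against MIWI +/-. In MIWI +/KI against MIWI +/- 0 of 41 members passed, beside 0.0251% of all genes higher and 0.0702% lower, 0.0953% in all. With array weights 9 passed, beside 7.79% of all genes, and with only these genotypes in the model 10 did, beside 7.39%. Spata32, Spata18 and Spata3 had log2 fold changes of -0.71, -0.48 and -0.44 in this comparison, with adjusted p of 0.292, 0.219 and 0.257. In each of them MIWI +/KI was below MIWI +/- and above the genotypes without a wild-type allele. MIWI -/KI against MIWI -/- gave 0 calls among members and among all genes (0%), and Spata32 differed by 0.03 on the log2 scale with an SE of 0.23. Piwil1 did not pass there either, at 672 and 696 in MIWI -/KI beside 196 and 151 in MIWI -/-. The 0 calls therefore do not show that these genotypes are alike. The difference between the effect in MIWI -/KI against MIWI +/KI and that in MIWI -/- against MIWI +/- passed in 0 members and in 0% of all genes. In Spata4 and Spata9 MIWI -/- replicate 2 (1855 and 277) lay apart from replicate 1 (3012 and 449) and near MIWI +/KI (1789 and 1705; 269 and 252), as that array did over all clusters.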

How the data were processed

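Total RNA of purified round spermatids was measured on 8 Affymetrix arrays, 2 for each of 4 MIWI genotypes. The deposited intensities are linear, 1 value for each transcript cluster, and were made with RMA per the submitters' processing notes; the sources used here give no version. Whole numbers more than 100-fold above the cluster's median elsewhere, 8 cells with 0 in a member, were treated as missing. Of 35512 clusters 21789 had 1 gene symbol in the platform annotation, 1621 several and 12102 none listed. Log2 intensities of all 8 arrays were fitted in limma 3.58.1 (R 4.3.3) with 1 mean per genotype, 7 contrasts and eBayes with trend (residual df 4, prior df 3.98). P-values are two-sided and adjusted by Benjamini-Hochberg over all clusters. SE is the moderated standard error. An exact permutation of 2 against 2 arrays cannot give a p below 0.333 and was not used. The members, role groups, 7 partner lists and 7 marker lists, the threshold and the alternatives were chosen with earlier results of these data known. Named genes were all members, the partner genes past the threshold (at most the 4 largest changes a list and comparison) and Piwil1; Syce2, Lin28a, Aard, Wt1, Aif1 and Acta2 are the markers that passed. Partner counts and genes without 1 array were added after the data were seen. Tested on simulated data of 35512 clusters, for the contrast of MIWI -/- and MIWI +/-, the fit called 30 of 67 clusters changed 2-fold (44.8%), 60 of 67 changed 4-fold (89.6%) and 63 of 66 changed 8-fold (95.5%), with 11 false calls. The simulated noise was drawn independently for each cluster and array. Deviations that many clusters of an array share were not in it, so these rates need not hold for the real arrays.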

Additional observations from a re-analysis of the deposited data

Results flagged for a closer look

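In 5 members both MIWI -/- arrays lay on one side of the MIWI +/- arrays and both MIWI -/KI arrays on the opposite side of the MIWI +/KI arrays, a pattern also met in 1724 of 19938 genes (8.65%). The value given first is the effect in MIWI -/KI against MIWI +/KI minus that in MIWI -/- against MIWI +/-, on the log2 scale; the difference was tested in limma and passed in 0 of the 5. Spata19 had 1.53 (effects 0.21 and -1.32, adjusted p = 0.110; 0.0386 without MIWI -/- replicate 1). Spata2 had -1.02 (effects -0.41 and 0.61, adjusted p = 0.133). Spata2l, a relative of Spata2, had -0.998 (effects -0.63 and 0.36, adjusted p = 0.209). Spata5 had 0.76 (effects 0.52 and -0.24, adjusted p = 0.380). Spag11b, dim on all 8 arrays, had -0.24 (effects -0.05 and 0.18, adjusted p = 0.696). Groups of 2 arrays were too small for a search for single arrays far from the rest of their group.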

How the results depend on the processing

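Of 33 calls of a member in a comparison, 12 were kept in every alternative, those of Spata32, Spata18, Spata3 and Spata31d1a in either genotype without a wild-type allele against MIWI +/- and in both such genotypes against both others; 0 reversed. With each array left out in turn, the number of members called ranged from 4 to 13 in MIWI -/- against MIWI +/-, 4 to 11 in MIWI -/KI against MIWI +/-, 0 to 13 in MIWI -/KI against MIWI +/KI (13 without MIWI -/KI replicate 1, beside 13.4% of all genes, 0 without either MIWI +/KI array), 4 to 16 without against with a wild-type allele (16 without MIWI -/KI replicate 1, 4 without either MIWI +/KI or either MIWI +/- array) and 0 to 1 for the difference between the effects. Each such fit left 1 genotype with 1 array, and the share of all genes called moved between them as well. In MIWI +/KI against MIWI +/- the count was 9 with array weights (7.79% of all genes), 10 with only these genotypes in the model (7.39%) and 1 (Spata19) with clusters above the median intensity (1.04% of the genes in that fit). MIWI -/KI against MIWI +/- gave 4 with only these genotypes (2.44% of all genes), and the difference between the effects gave 1 (Spata19, adjusted p = 0.0377) with clusters above the median (1.5% of the genes in that fit). The fits with only these genotypes used fewer arrays, and those above the median fewer clusters. Array weights kept all 8 arrays and all clusters and let arrays count unequally. The cause of the changed counts was not tested. The replicate number as a block gave 7 members in MIWI -/- against MIWI +/- (5.85% of all genes), 9 in MIWI -/KI against it (5.74%) and 4 in MIWI -/KI against MIWI +/KI (1.96%). It gave 9 in the comparison by wild-type allele (7.7%) and 0 in the other 3 comparisons (0%). Deviations of same-numbered arrays correlated between -0.26 and 0.30 over pairs of genotypes. These correlations had both signs, and whether arrays were handled together cannot be told from them. Arrays are 2 a genotype, and Spag11a, Spag11b, Spata13 and Spata5l1 were below the gene median, which limits what could be seen in them.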
